A study of Mus musculus with 27 samples.

Results

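Stimulated wild-type CD8+ T cells were compared with stimulated wild-type CD4+ T cells across all genes, using the 3 libraries of each kind among 27 libraries of mouse T cells. Both groups had the genotype B6-wt, wild-type mice of the B6 strain. The CD8+ and CD4+ cells were taken from pooled lymph nodes and spleens by negative magnetic sorting, in which other cells are labelled and removed. They were then held for 48 h in plates coated with anti-CD3 and anti-CD28 antibodies (10 µg/ml), a standard stimulus through the T cell receptor and its main costimulatory receptor. Cells binding the protein MFG-E8 or the dye 7-AAD, both marks of dying cells, were removed by flow sorting before total RNA was extracted. A second pair of groups served for comparison, CD8+ and CD4+ cells stimulated in the same way from mice labelled B6-Tg(Cd4-cre)1Cwi-Rptortm1.1Dmsa, here called Raptor KO, in which Cre under the Cd4 promoter is meant to delete part of Rptor in T cells of both subsets. Rptor encodes Raptor, a core subunit of the kinase complex mTORC1. Another pair was resting, namely wild-type CD8+ and CD4+ cells held for 48 h with the survival cytokine IL-7 at 5 ng/ml and without the antibodies. Each of these 6 groups had 3 libraries. Whether these 3 came from separate animals is not in the labels, so p-values measure the spread between the libraries, which may be technical.

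CD4+ helper and CD8+ cytotoxic T cells arise from a common thymic precursor. The transcription factor ThPOK, encoded by Zbtb7b, holds cells in the helper fate, and Runx3 holds them in the cytotoxic fate and silences Cd4. After stimulation, CD8+ cells typically make interferon gamma and load granules with perforin and granzymes, whereas CD4+ cells typically make helper cytokines and CD40 ligand.

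The 6 libraries held 11449525 to 14036675 counts each. Of these, 82.3% to 87.6% fell on the ribosomal RNA precursor gene Rn45s, which was left out, and 1522199 to 2280104 counts remained. Protein-coding genes took 49.9% to 62.5% of the remaining counts in CD8+ libraries and 38.9% to 63.6% in CD4+ libraries. Small nucleolar RNAs took 11.7% to 16.2% in CD8+ libraries and 11.0% to 23.1% in CD4+ libraries, and CD4+ library 1 was at the outer end of both ranges. The median count of tested protein-coding genes was 43 in a library. Levels below are given in CPM, a gene's counts per 1000000 counts of the library total without Rn45s, after TMM scaling, which corrects for differences in composition. CPM is not divided by gene length and is compared only between libraries for the same gene. Rptor averaged 19.8 ± 2.68 CPM in stimulated Raptor KO CD8+ and 22.1 ± 4.41 CPM in Raptor KO CD4+ cells, against 23.5 ± 5.27 CPM in wild-type CD8+ and 26.3 ± 3.63 CPM in wild-type CD4+ cells (SD, n = 3 each). Counts over a whole gene cannot show the loss of part of it, so they do not check that label.

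In stimulated CD8+ cells 323 genes were higher and 221 lower than in stimulated CD4+ cells at an adjusted p under 0.05 (edgeR's quasi-likelihood test with Benjamini-Hochberg adjustment, 10493 genes tested). That is 5.18% of the genes tested, with 3.08% higher and 2.11% lower. Of the 544 genes, 526 were protein coding, and 321 differed by 2-fold or more. Without 1 library at a time the count lay between 399 and 487, and without CD4+ library 1 it was 429. Fitted with the compared groups alone it was 394, with Rn45s kept in the library totals 181, and with a fold change of 1.5 required 171. Here and below, totals with Rn45s were used without TMM scaling, so that alternative changed both. The RNA came from many sorted cells together, so fewer cells of a type and less RNA per cell cannot be told apart.

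**Figure D1:**
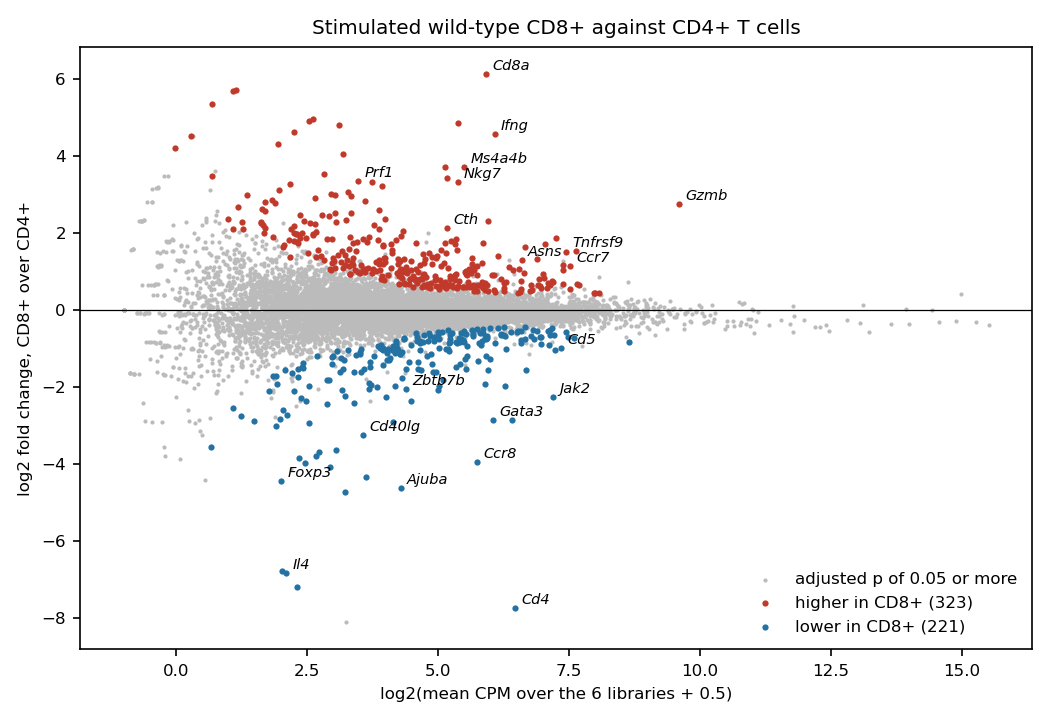
Log2 fold change of stimulated wild-type CD8+ over CD4+ cells (vertical) against the log2 of the mean CPM over the 6 libraries plus 0.5 (horizontal), 1 point per tested gene. Red points (323 genes) were higher and blue points (221 genes) lower in CD8+ cells at an adjusted p under 0.05; Cd8a and Cd4 stand at opposite ends, and Gzmb is far to the right among the red points.

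The coreceptor genes separated the groups as their labels say. Cd8a, one chain of the CD8 coreceptor (chromosome 6, 71373427 to 71379173 on GRCm38, plus strand), had 128, 110.3 and 117 CPM in CD8+ libraries, against 3.24, 0.891 and 1.38 CPM in CD4+ libraries. Cd8b1, the other chain, had 84.7, 80.8 and 73.0 CPM in CD8+ libraries and 2.59, 1.34 and 3.58 CPM in CD4+ libraries. The log2 fold changes were 6.13 ± 0.26 (SE) for Cd8a and 4.87 ± 0.28 for Cd8b1, with adjusted p of 9.0e-22 and 1.1e-14. Cd4 (chromosome 6, 124864692 to 124888221, minus strand) had 0.394, 1.07 and 0.848 CPM in CD8+ libraries, against 181, 174 and 171 CPM in CD4+ libraries. Its log2 fold change was -7.74 ± 0.48 (adjusted p = 1.9e-09), and for these 3 genes no library of one group came near the other.

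Among the fate-determining factors, Zbtb7b (chromosome 3, 89377644 to 89394776, minus strand) had 6.70, 15.5 and 3.11 CPM in CD8+ libraries, against 39.6, 33.0 and 24.2 CPM in CD4+ libraries (log2 fold change -2.05 ± 0.28, adjusted p = 1.6e-06). The CD8+ libraries differed widely among themselves, library 2 being the highest, and all lay below the CD4+ libraries. The Zbtb7b call was lost with the compared groups alone (adjusted p = 0.0679). Runx3 had 88.3, 84.0 and 82.9 CPM in CD8+ libraries and 67.5, 69.5 and 47.3 CPM in CD4+ libraries. Its log2 fold change of 0.49 ± 0.18 did not pass (adjusted p = 0.13). Runx1, a related factor, was lower, at 5.91, 4.82 and 9.62 CPM in CD8+ libraries against 37.6, 40.5 and 33.0 CPM in CD4+ libraries (log2 fold change -2.35 ± 0.24, adjusted p = 3.0e-09). Runx2, also related, was higher, averaging 22.9 CPM in CD8+ and 5.18 CPM in CD4+ libraries (log2 fold change 2.10, adjusted p = 0.00024). Eomes, a T-box factor of cytotoxic cells, was higher, at 13.8, 15.0 and 21.5 CPM in CD8+ libraries and 1.30, 0 and 3.58 CPM in CD4+ libraries (log2 fold change 3.08 ± 0.44, adjusted p = 5.6e-06). Tbx21, the other T-box factor, encoding T-bet, had 33.5, 26.2 and 54.9 CPM in CD8+ libraries and 49.3, 48.1 and 81.2 CPM in CD4+ libraries (adjusted p = 0.065), and the groups overlapped.

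Of 12 CD8 lineage genes tested, 9 were higher in CD8+ cells and 0 lower, with a median log2 fold change of 2.48, against -0.003 over all genes tested. Of 19 CD4 lineage and helper genes tested, 9 were lower and 0 higher, with a median of -0.98. Gata3, the factor of type 2 helper cells, had 20.1, 20.3 and 8.77 CPM in CD8+ libraries and 121, 143 and 79.5 CPM in CD4+ libraries (log2 fold change -2.85 ± 0.34, adjusted p = 1.2e-05). Cd40lg, which encodes CD40 ligand and lets helper cells act on B cells, had 4.34, 0 and 1.70 CPM in CD8+ libraries and 24.7, 12.9 and 24.8 CPM in CD4+ libraries (log2 fold change -3.25 ± 0.41, adjusted p = 8.7e-07). For both genes every CD8+ library was below every CD4+ library.

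Marker genes of regulatory T cells, which are CD4+ cells, were lower for 3 of 12 genes tested and higher for 2. Foxp3, the defining factor of regulatory T cells, had 2 counts in all over the 3 CD8+ libraries. It had 0.394, 0.535 and 0 CPM there, against 6.49, 5.35 and 8.26 CPM in CD4+ libraries. The ratio of its summed counts to the summed library sizes put CD8+ cells 27.8-fold lower (95% interval 7.33 to 236, from counting error only). Izumo1r had 7.88, 19.8 and 12.4 CPM in CD8+ libraries and 53.2, 56.1 and 43.2 CPM in CD4+ libraries (log2 fold change -1.96 ± 0.30, adjusted p = 5.7e-05). Gpr83 was lower by a log2 fold change of -2.59 ± 0.58 (adjusted p = 0.0028). The 2 higher genes, Nrp1, a semaphorin coreceptor, and Tnfrsf9, a costimulatory receptor, are also expressed by other activated T cells. Nrp1 had 5.52, 10.7 and 18.7 CPM in CD8+ libraries and 5.84, 2.23 and 5.23 CPM in CD4+ libraries, with overlap (log2 fold change 1.43 ± 0.39, adjusted p = 0.020). The call for Nrp1 was lost without CD8+ library 3 (adjusted p = 0.38) or CD4+ library 2 (adjusted p = 0.16). With the compared groups alone 0 genes of this list were higher, the adjusted p being 0.14 for both Nrp1 and Tnfrsf9.

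Marker genes of other cell types that the cultures could hold were mostly low. Summed over 18 myeloid genes, CD8+ libraries had 48.1 to 61.1 CPM and CD4+ libraries 22.7 to 29.4 CPM. Lyz2, S100a8 and Itgam had 0 counts in both groups, and 2 of the 3 tested genes were higher in CD8+ cells. Ctss, a cathepsin, had 24.0, 28.9 and 30.5 CPM in CD8+ libraries, against 11.7, 12.0 and 17.3 CPM in CD4+ libraries. Cst3, a cystatin, had 19.7, 21.9 and 26.6 CPM in CD8+ libraries, against 8.43, 13.4 and 9.91 CPM in CD4+ libraries. The Ctss call was lost without CD8+ library 3 (adjusted p = 0.05036) or CD4+ library 2 (adjusted p = 0.0529), and 0 myeloid genes were higher with Rn45s in the totals or with the fold change of 1.5 required. Summed over 17 B cell genes, CD8+ libraries had 74.1 to 86.0 CPM and CD4+ libraries 44.8 to 54.8 CPM. The highest of them was Ighm, at 50.8, 41.2 and 56.3 CPM in CD8+ libraries against 21.4, 18.7 and 28.6 CPM in CD4+ libraries, while Ms4a1 averaged 0.273 CPM in CD8+ libraries and 0.0917 CPM in CD4+ libraries. For natural killer, gamma-delta and NKT cells, 16 genes summed to 23.3 to 31.4 CPM in CD8+ libraries and 15.6 to 22.0 CPM in CD4+ libraries, and Ncr1 had 0 counts in both groups. The part of such cells in the differences reported here was not tested.

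Genes of the cytotoxic granule stood higher in CD8+ cells. Of 19 genes tested, 8 were higher and 0 lower, with a median log2 fold change of 0.45. Gzmb (chromosome 14, 56258838 to 56262260, minus strand), encoding granzyme B, which triggers apoptosis in target cells, had 1552, 1441 and 1080 CPM in CD8+ libraries, against 193, 209 and 204 CPM in CD4+ libraries (log2 fold change 2.75 ± 0.36, adjusted p = 4.5e-05). Prf1, encoding the pore-forming protein perforin, had 20.5, 18.7 and 19.5 CPM in CD8+ libraries, against 0.649, 1.78 and 2.48 CPM in CD4+ libraries (log2 fold change 3.35 ± 0.38, adjusted p = 2.1e-08). Nkg7, a granule membrane protein needed for degranulation, had 69.0, 77.1 and 79.5 CPM in CD8+ libraries, against 4.54, 4.46 and 11.0 CPM in CD4+ libraries (log2 fold change 3.33 ± 0.30, adjusted p = 2.9e-08). All CD8+ libraries lay far above all CD4+ libraries for these 3 genes, and the spread within a group was small beside the gap.

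The other 5 granule genes past the threshold were Sytl3, Ctsw, Serpinb6b, Serpinb9 and Lyst. Sytl3, a synaptotagmin-like protein, had 14.2, 9.64 and 11.9 CPM in CD8+ libraries and 2.59, 1.78 and 2.20 CPM in CD4+ libraries (log2 fold change 2.44 ± 0.37, adjusted p = 7.9e-06). Serpinb9, the inhibitor that protects a cell from its own granzyme B, had 206, 135 and 259 CPM in CD8+ libraries and 61.6, 60.2 and 61.6 CPM in CD4+ libraries (log2 fold change 1.72 ± 0.18, adjusted p = 1.3e-08). Its relative Serpinb6b had 232, 238 and 247 CPM in CD8+ libraries and 57.1, 69.1 and 67.7 CPM in CD4+ libraries (log2 fold change 1.88 ± 0.28, adjusted p = 0.00013). For these serpins too the groups were apart, and since Serpinb genes are close copies their counts may have been split. Ctsw, encoding cathepsin W, and Lyst, which controls lysosome traffic, had log2 fold changes of 1.95 ± 0.40 and 0.73 ± 0.17, with adjusted p of 0.0012 and 0.0048. Other granule genes did not pass. Srgn, the granule proteoglycan serglycin, had 103, 105 and 109.7 CPM in CD8+ libraries and 133, 161 and 101 CPM in CD4+ libraries (adjusted p = 0.40). Lamp1 had 24.8, 35.9 and 41.3 CPM in CD8+ libraries and 39.6, 43.2 and 50.4 CPM in CD4+ libraries (adjusted p = 0.29). Some granzyme genes had too few counts to be tested, and most of their counts were in CD4+ libraries. Gzma had 1 count over the CD8+ and 28 over the CD4+ libraries, Gzmc 9 and 21, and Gzmm 2 and 7. Gzmd had 1 and 0, and Gzmk 0 in both.

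The 150 bases before the transcription start of Gzmb, Prf1 and Nkg7 are shown because Runx factors are known regulators of cytotoxic genes. Sequences are RefSeq's, on GRCm38.p6, 5′ to 3′ along each gene. Capitals mark the Runx core motif TGTGGT or its reverse complement ACCACA. Gzmb is at chr14:56262335-56262484 (minus strand), Prf1 at chr10:61297686-61297835 (plus strand) and Nkg7 at chr7:43436988-43437137 (plus strand).
Gzmb: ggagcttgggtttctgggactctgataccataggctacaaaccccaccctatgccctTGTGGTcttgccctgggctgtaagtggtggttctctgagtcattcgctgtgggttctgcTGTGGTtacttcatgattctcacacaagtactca
Prf1: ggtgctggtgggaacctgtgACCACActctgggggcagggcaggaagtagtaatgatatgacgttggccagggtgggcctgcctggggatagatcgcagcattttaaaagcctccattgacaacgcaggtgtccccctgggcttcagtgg
Nkg7: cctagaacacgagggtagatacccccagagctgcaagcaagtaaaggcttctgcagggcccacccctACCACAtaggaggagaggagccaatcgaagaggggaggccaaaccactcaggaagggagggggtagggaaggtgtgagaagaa
The motif begins 93 and 34 bases before the start in Gzmb, 130 before it in Prf1 and 83 before it in Nkg7. Of the 8 granule genes past the threshold, 7 were in the promoter table and 4 of these held the motif on either strand, Sytl3 being the other. It was held by 9.73% of all 27025 genes with an entry. A match is a description of the letters and not a bound site.

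Interferon gamma and the IL-18 receptor, which drives it, were higher in CD8+ cells. Ifng (chromosome 10, 118441046 to 118445892, plus strand) had 185, 128 and 75.5 CPM in CD8+ libraries, against 1.95, 3.56 and 8.26 CPM in CD4+ libraries (log2 fold change 4.58 ± 0.46, adjusted p = 1.2e-05). CD8+ library 3 was the lowest of its group and CD4+ library 3 the highest of its own, still with a wide gap. Il18r1 and Il18rap encode the 2 chains of the IL-18 receptor. Il18r1 had 16.9, 10.2 and 21.2 CPM in CD8+ libraries and 1.95, 0.891 and 0.550 CPM in CD4+ libraries, and Il18rap had 4.73, 2.68 and 7.07 CPM in CD8+ libraries and 0.649, 0.446 and 0.826 CPM in CD4+ libraries. Their log2 fold changes were 4.05 ± 0.46 (adjusted p = 6.3e-08) and 2.81 ± 0.61 (adjusted p = 0.0019), with no overlap between groups. Stat4, which carries the IL-12 signal, was higher with 43.8, 39.6 and 49.2 CPM in CD8+ libraries and 17.5, 12.9 and 20.6 CPM in CD4+ libraries (log2 fold change 1.36 ± 0.19, adjusted p = 1.4e-06). Il12rb1, a chain of the IL-12 receptor, ran the other way, with 65.8, 74.4 and 71.3 CPM in CD8+ libraries and 143, 112 and 108 CPM in CD4+ libraries (log2 fold change -0.77 ± 0.18, adjusted p = 0.0051). Tnf did not pass, at 50.8, 58.3 and 45.5 CPM in CD8+ libraries and 81.7, 56.1 and 82.3 CPM in CD4+ libraries (adjusted p = 0.43). In the whole effector cytokine list, 5 of 13 genes tested were higher and 1 lower.

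Il2 and Il4 were lower in CD8+ cells. Il2, the T cell growth factor, had 5.91, 3.21 and 46.7 CPM in CD8+ libraries, against 129.7, 65.1 and 256 CPM in CD4+ libraries. Library 3 was the highest of each group, and the groups did not overlap (log2 fold change -2.86 ± 0.67, adjusted p = 0.013). The Il2 call was lost without CD8+ library 1 (adjusted p = 0.0771), CD8+ library 2 (adjusted p = 0.0594) or CD4+ library 3 (adjusted p = 0.0984). Il4, the cytokine of type 2 help, had 0 counts in all 3 CD8+ libraries and 8.43, 12.0 and 2.20 CPM in CD4+ libraries. It was at least 20.0-fold lower in CD8+ cells, taking 3 counts over the group as the floor (adjusted p = 5.0e-05). Of 11 helper cytokine genes tested, these 2 were lower and 0 higher. With the compared groups alone 0 were lower (adjusted p = 0.30 for Il2, while Il4 fell under the filter on low counts), and with no filter on low counts 4 were.

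Of 5 chemokine genes tested, 2 were higher in CD8+ cells, with wide spread between libraries. Xcl1, a chemokine that draws cross-presenting dendritic cells, had 12.2, 6.42 and 28.6 CPM in CD8+ libraries and 1.30, 0 and 0.550 CPM in CD4+ libraries (log2 fold change 4.81 ± 1.11, adjusted p = 0.014). Ccl9 had 0 counts in the CD4+ libraries and 2.36, 0 and 4.24 CPM in CD8+ libraries, at least 5.45-fold higher over the floor of 3 counts for the group (adjusted p = 0.013), although 1 CD8+ library also had none. Neither call held without CD8+ library 3 (adjusted p = 0.0831 for Xcl1 and 0.11 for Ccl9) or CD4+ library 3 (adjusted p = 0.0868 for Xcl1 and 0.0818 for Ccl9). The Xcl1 call was also lost without CD4+ library 2 (adjusted p = 0.0652). Without CD8+ library 2, 4 of the 5 chemokine genes were higher, without CD8+ library 3 the count was 0, and without CD4+ library 2 it was 1. It was also 1 with the compared groups alone, where Ccl9 fell under the filter on low counts, by DESeq2 (adjusted p = 0.0758 for Ccl9) and by limma-voom (adjusted p = 0.16 for Xcl1). Ccl3 and Ccl4, inflammatory chemokines, did not pass with all libraries. Ccl3 had 46.9, 15.0 and 74.1 CPM in CD8+ libraries and 3.24, 2.67 and 23.4 CPM in CD4+ libraries (adjusted p = 0.10), and Ccl4 had 35.9, 17.7 and 72.4 CPM in CD8+ libraries against 7.14, 4.90 and 21.7 CPM in CD4+ libraries (adjusted p = 0.059). The groups of both genes overlapped.

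**Figure D2:**
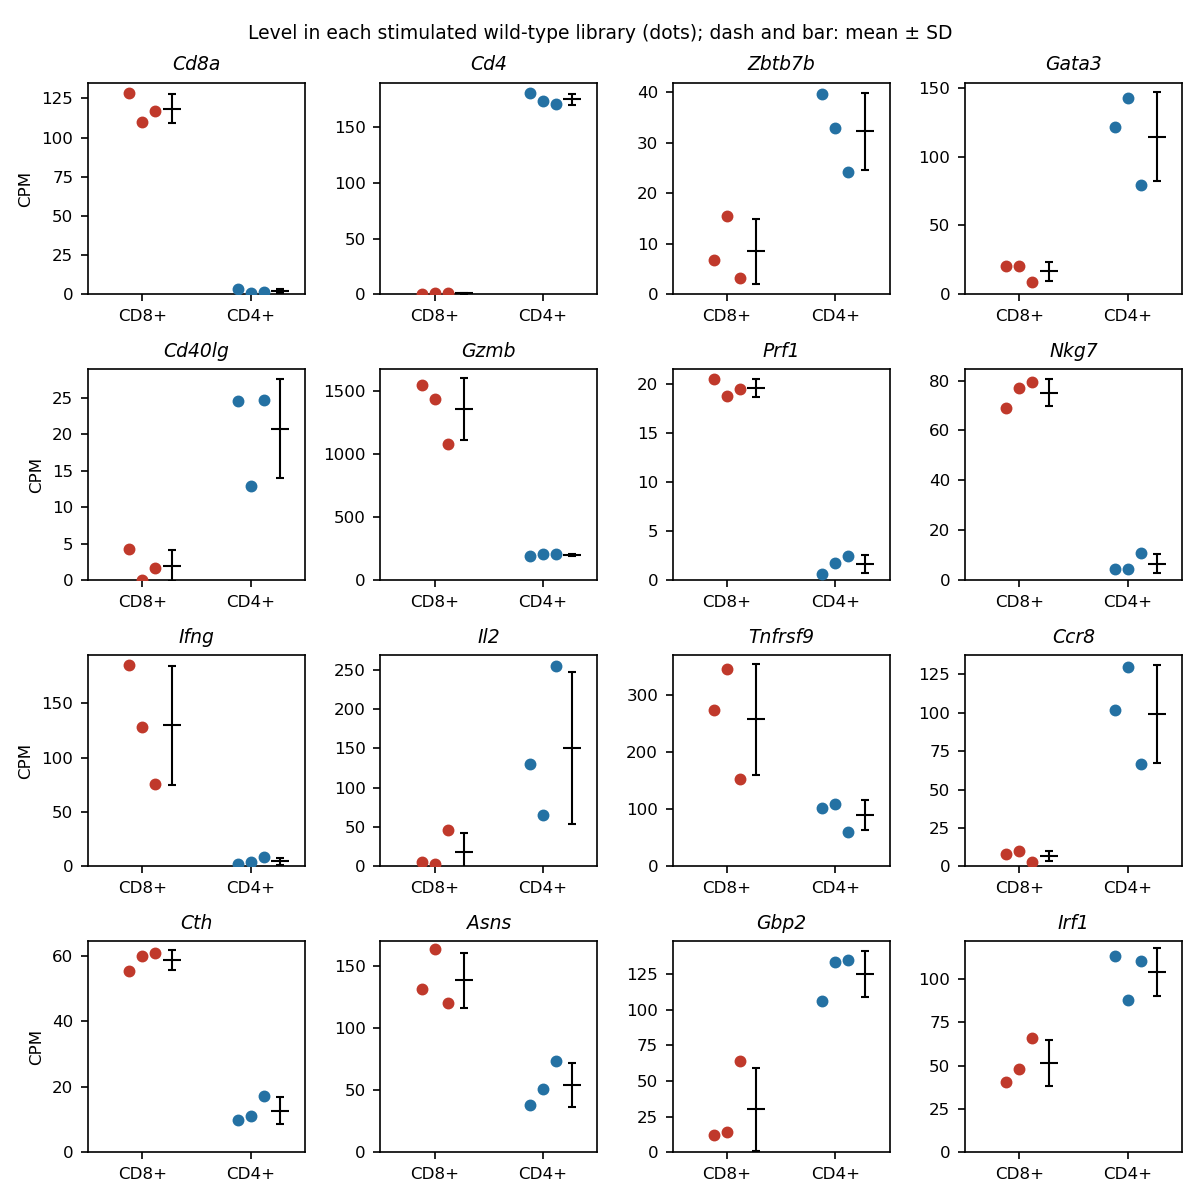
CPM of 16 genes in each of the 3 stimulated wild-type CD8+ libraries (red, left) and 3 CD4+ libraries (blue, right), with the mean and SD beside them. For each gene plotted the groups do not overlap; Il2 and Gbp2 each have 1 CD8+ library well above the other two.

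Receptors first known from natural killer cells were higher in CD8+ cells for 4 of 5 genes tested. Klrk1, encoding the activating receptor NKG2D, had 15.8, 23.6 and 11.6 CPM in CD8+ libraries and 4.54, 0.891 and 1.65 CPM in CD4+ libraries (log2 fold change 2.96 ± 0.40, adjusted p = 1.1e-06). Klrd1 and Klrc1 encode the CD94 and NKG2A chains of an inhibitory receptor, and their log2 fold changes were 3.12 ± 0.77 (adjusted p = 0.013) and 2.92 ± 0.49 (adjusted p = 5.8e-05). Klrc1 has near copies whose reads may be shared, and the Klrd1 call was lost without CD8+ library 1 (adjusted p = 0.0589) or CD4+ library 2 (adjusted p = 0.0614) and by limma-voom (adjusted p = 0.0864). Cd160 was higher by 2.00 ± 0.48 on the log2 scale (adjusted p = 0.0061). Crtam, an adhesion receptor of cytotoxic T cells, had 23.3, 16.1 and 31.7 CPM in CD8+ libraries and 1.30, 0.891 and 3.85 CPM in CD4+ libraries (log2 fold change 3.33 ± 0.42, adjusted p = 1.1e-06). Tnfrsf9, the costimulatory receptor 4-1BB, had 275, 346 and 152 CPM in CD8+ libraries and 102, 109 and 60.0 CPM in CD4+ libraries (log2 fold change 1.52 ± 0.30, adjusted p = 0.0032), a call lost with the compared groups alone as given above.

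Inhibitory receptors were split, with 3 of 14 genes tested higher and 2 lower. Lag3, which binds MHC class II, had 52.8, 80.3 and 73.0 CPM in CD8+ libraries and 25.9, 42.3 and 31.1 CPM in CD4+ libraries (log2 fold change 1.04 ± 0.24, adjusted p = 0.0083). This call was lost without CD4+ library 1 (adjusted p = 0.0543) or CD4+ library 3 (adjusted p = 0.0557). Btla, the receptor for HVEM, had 32.3, 23.0 and 37.1 CPM in CD8+ libraries and 98.0, 71.3 and 108 CPM in CD4+ libraries (log2 fold change -1.56 ± 0.27, adjusted p = 0.00059). Without CD8+ library 3, CD4+ library 1 or CD4+ library 3, 1 gene of the list was lower instead of 2. Keeping Rn45s in the totals, or requiring the fold change of 1.5, left 1 higher and 1 lower, and with the compared groups alone 1 was lower. Costimulatory receptor genes were also split, with 3 of 19 tested higher and 3 lower, and 1 lower without CD8+ library 1 or CD4+ library 1. With the compared groups alone 1 was higher, and DESeq2 called 6 lower.

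Receptors that direct migration were higher for 4 of 21 genes tested and lower for 3. Ccr7, the receptor that brings cells into lymph nodes, had 219.9, 280.5 and 257 CPM in CD8+ libraries and 103, 105 and 134 CPM in CD4+ libraries (log2 fold change 1.14 ± 0.16, adjusted p = 2.7e-06). Itga4, the alpha 4 integrin chain, had 23.3, 33.2 and 30.5 CPM in CD8+ libraries and 7.78, 8.47 and 16.0 CPM in CD4+ libraries (log2 fold change 1.34 ± 0.22, adjusted p = 6.0e-05). Ccr8, a chemokine receptor of type 2 helper and regulatory T cells, was lower, with 7.88, 9.64 and 3.11 CPM in CD8+ libraries and 102, 129.7 and 66.3 CPM in CD4+ libraries (log2 fold change -3.94 ± 0.49, adjusted p = 0.00010). None of these 3 genes overlapped between groups. The count of lower genes was 1 without CD8+ library 3 or CD4+ library 2. With Rn45s in the totals 1 gene was higher and 1 lower, and the calls of Ccr7 (adjusted p = 0.12) and Itga4 (adjusted p = 0.0622) were lost. The Ly6C genes, used as markers of T cell state, showed opposite differences. Ly6c2 had 12.6, 25.7 and 28.8 CPM in CD8+ libraries and 1.95, 1.34 and 8.53 CPM in CD4+ libraries (log2 fold change 2.22 ± 0.44, adjusted p = 0.0022), and its call was lost with the compared groups alone (adjusted p = 0.12). Ly6c1 had 0 counts in CD8+ libraries and 5.84, 12.5 and 8.53 CPM in CD4+ libraries, at least 23.7-fold lower over the floor of 3 counts for the group (adjusted p = 1.4e-05). These genes are near-identical copies, so the division of reads between them is uncertain.

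Transcription factors of effector and memory states were lower for 10 of 33 genes tested and higher for 5. These counts moved with the processing: 8 were higher by limma-voom, and 5 were lower with Rn45s in the totals and 4 with the fold change of 1.5 required. Egr2, an early response factor downstream of the T cell receptor, had 12.6, 10.2 and 12.4 CPM in CD8+ libraries and 57.7, 48.6 and 46.2 CPM in CD4+ libraries (log2 fold change -2.08 ± 0.22, adjusted p = 3.9e-09). T cell receptor signalling genes were divided, with 4 of 31 tested higher and 5 lower. Themis, a T cell scaffold protein, had 119, 96.9 and 89.4 CPM in CD8+ libraries and 41.5, 50.8 and 25.3 CPM in CD4+ libraries (log2 fold change 1.40 ± 0.18, adjusted p = 5.9e-07). Cd5, which dampens receptor signals, had 95.0, 103 and 129 CPM in CD8+ libraries and 248, 213 and 189 CPM in CD4+ libraries (log2 fold change -0.98 ± 0.15, adjusted p = 1.2e-05). Lcp2, encoding the adaptor SLP-76, had 156, 127 and 128 CPM in CD8+ libraries and 212, 215 and 234 CPM in CD4+ libraries (log2 fold change -0.69 ± 0.13, adjusted p = 0.00021). Each of these genes kept the groups apart. The count of higher signalling genes was 2 without CD8+ library 1 or CD8+ library 2, and that of lower ones was 3 without CD4+ library 2. Totals with Rn45s gave 2 higher and 0 lower, with the fold change of 1.5 required 1 and 0, and with the compared groups alone 2 were higher. Jak2, the kinase of several cytokine receptors, had 37.8, 39.1 and 72.1 CPM in CD8+ libraries and 259, 286 and 183 CPM in CD4+ libraries (log2 fold change -2.26 ± 0.22, adjusted p = 4.9e-08). Its call was lost with the compared groups alone and the library code, described below, as a block (adjusted p = 0.0804).

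**Figure D3:**
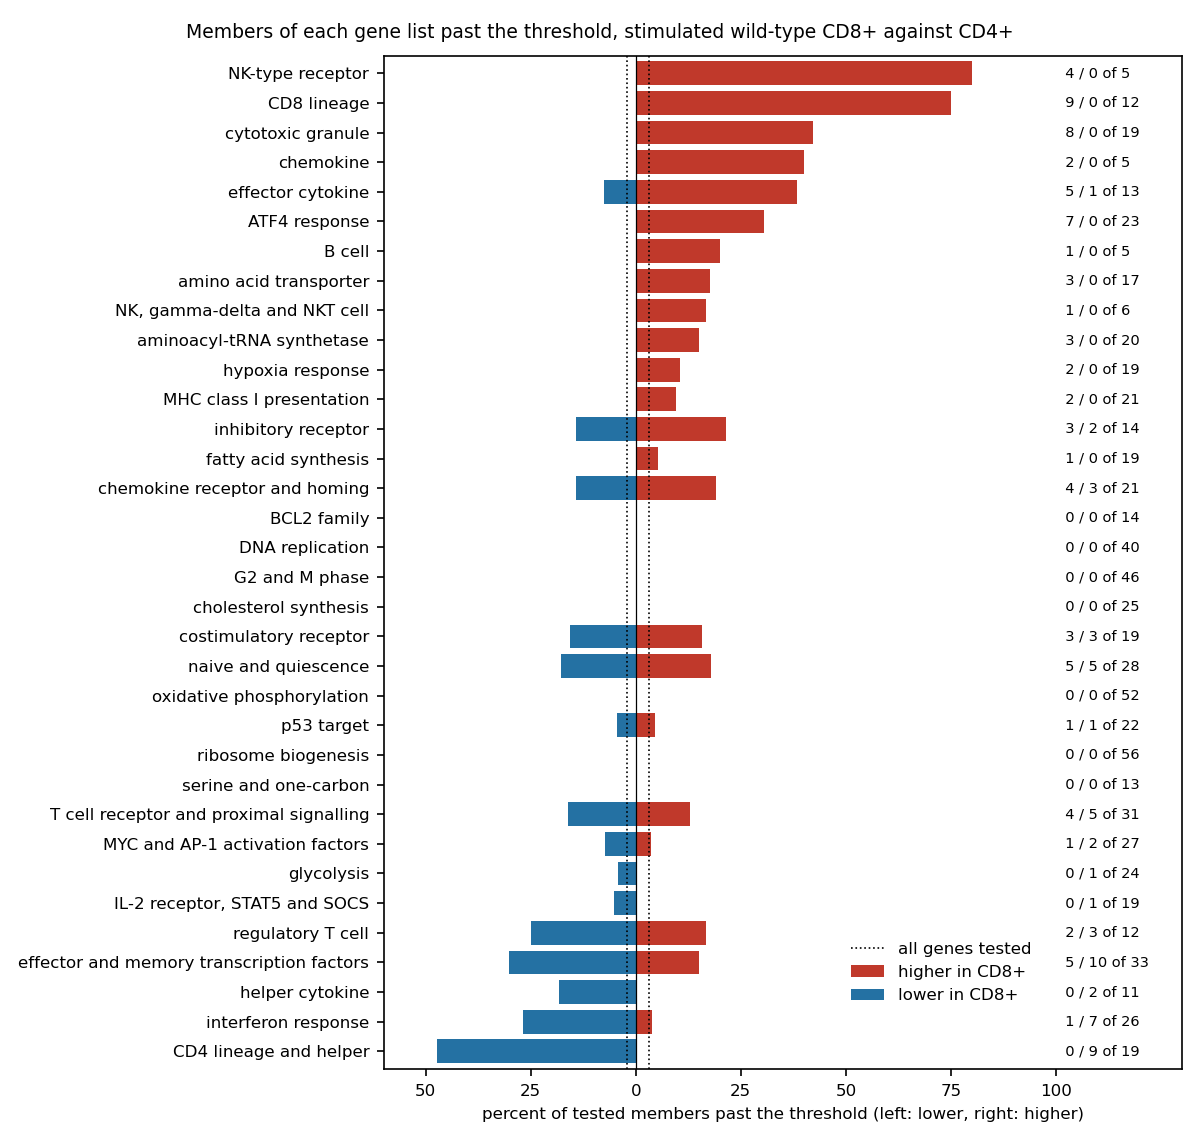
Percent of tested members of each plotted list that were higher (red, right) or lower (blue, left) in stimulated wild-type CD8+ than CD4+ cells. The threshold was an adjusted p under 0.05, and the counts stand at the right. The lists of myeloid cells, of erythroid, platelet and stromal cells, and of sex-linked genes are not plotted. Dotted lines mark all genes tested, 3.08% higher and 2.11% lower; CD8 lineage and granule genes lie to the right, and helper and interferon response genes to the left.

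Several genes known to be induced by interferon were lower in CD8+ cells. Of 26 interferon response genes tested, 7 were lower and 1 higher, with a median log2 fold change of -0.18. Members left out by the filter on low counts were not tested. Among them, Isg15 had 34 counts over the CD8+ and 2 over the CD4+ libraries, Ifit1 14 and 0, and Mx1 5 and 0. Ifit3, Oasl2, Gbp6, Rtp4 and Rsad2 had near-equal counts. Gbp2, an interferon-induced GTPase of cell-autonomous defence, had 12.2, 14.5 and 63.9 CPM in CD8+ libraries, against 106, 133 and 135 CPM in CD4+ libraries (log2 fold change -1.96 ± 0.38, adjusted p = 0.0029). Irf1, the transcription factor that relays the interferon gamma signal, had 40.6, 48.2 and 66.2 CPM in CD8+ libraries, against 114, 88.2 and 110.4 CPM in CD4+ libraries (log2 fold change -1.0 ± 0.17, adjusted p = 8.7e-05). CD8+ library 3 was the highest of its group for both genes and still below all CD4+ libraries. Irgm1, a GTPase of the immunity-related family, had 41.4, 27.3 and 52.3 CPM in CD8+ libraries and 79.8, 61.5 and 76.0 CPM in CD4+ libraries (log2 fold change -0.81 ± 0.18, adjusted p = 0.0022). Its relatives Igtp and Irgm2 had log2 fold changes of -0.70 ± 0.18 (adjusted p = 0.0096) and -0.79 ± 0.21 (adjusted p = 0.014), and Gbp4 and Gbp5 had -1.35 ± 0.36 (adjusted p = 0.030) and -1.03 ± 0.25 (adjusted p = 0.0082). For all 7 genes every CD8+ library was below every CD4+ library. Here, as for other genes, this comes from the libraries that gave the calls and is no separate support. The share of all genes without overlap was not counted. The 1 higher gene, Trim30a, had 34.3, 43.4 and 31.4 CPM in CD8+ libraries and 9.73, 11.1 and 11.0 CPM in CD4+ libraries (log2 fold change 1.73 ± 0.20, adjusted p = 3.2e-08).

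The interferon response count depended on single libraries. It fell to 3 lower genes without CD8+ library 1, and to 4 without CD8+ library 2 or CD4+ library 3. Gbp4, Igtp and Irgm2 lost their calls without any 1 of those libraries, with adjusted p up to 0.21 for Gbp4, 0.0626 for Igtp and 0.12 for Irgm2, and Irgm2 also without CD4+ library 1 (adjusted p = 0.0565). Gbp5 lost its call without CD8+ library 1 (adjusted p = 0.10) or CD4+ library 3 (adjusted p = 0.13). With the compared groups alone the calls of Gbp2 (adjusted p = 0.27) and Gbp5 (adjusted p = 0.11) were lost. With Rn45s kept in the library totals, or with a fold change of 1.5 required, 1 gene of the list was lower. The guanylate-binding proteins and the immunity-related GTPases are families of close copies, so counts may have been split among them.

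Windows before the start of 4 of these genes are shown, since the interferon-stimulated response element and the gamma-activated site are the sequences through which interferons act. Capitals mark the response element in Gbp2, Igtp and Irgm2, searched as GAAA, any 2 bases and GAAA again, or as TTTC, any 2 bases and TTTC on the other strand. In Irf1 they mark the gamma-activated site, TTCNNNGAA. The windows are again 150 bases from RefSeq on GRCm38.p6 and all on the plus strand: Gbp2 at chr3:142620513-142620662, Igtp at chr11:58199406-58199555, Irgm2 at chr11:58214827-58214976 and Irf1 at chr11:53769864-53770013.
Gbp2: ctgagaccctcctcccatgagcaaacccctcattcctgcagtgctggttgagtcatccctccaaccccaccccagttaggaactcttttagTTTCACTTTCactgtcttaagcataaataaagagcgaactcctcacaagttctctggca
Igtp: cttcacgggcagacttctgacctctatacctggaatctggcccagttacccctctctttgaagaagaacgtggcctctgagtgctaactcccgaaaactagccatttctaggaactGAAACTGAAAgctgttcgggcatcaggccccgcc
Irgm2: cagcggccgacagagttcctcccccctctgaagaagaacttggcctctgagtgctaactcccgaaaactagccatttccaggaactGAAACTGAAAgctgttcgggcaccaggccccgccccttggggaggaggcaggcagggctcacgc
Irf1: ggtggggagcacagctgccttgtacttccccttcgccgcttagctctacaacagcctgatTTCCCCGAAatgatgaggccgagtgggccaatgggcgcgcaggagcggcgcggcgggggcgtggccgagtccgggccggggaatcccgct
Of the 7 lower genes, 6 were in the promoter table, and 4 of these held the response element on either strand: Gbp2, Igtp, Irgm1 and Irgm2. Among all 27025 genes 1.85% held it. The palindromic TTCNNNGAA was held by 4 of the 6, namely Irf1, Igtp, Irgm2 and Gbp5, and by 4.77% of all genes. Igtp and Irgm2 share a long stretch of sequence, so they are not separate examples.

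Genes of the ATF4 response, which cells use to make and import amino acids, were higher in CD8+ cells for 7 of 23 tested and lower for 0, with a median log2 fold change of 0.60. Cth, which makes cysteine, had 55.2, 60.0 and 60.8 CPM in CD8+ libraries, against 9.73, 11.1 and 17.3 CPM in CD4+ libraries (log2 fold change 2.13 ± 0.33, adjusted p = 0.00050). Slc7a3 encodes a carrier of arginine and lysine. It had 41.8, 45.0 and 37.1 CPM in CD8+ libraries, against 13.0, 14.7 and 15.7 CPM in CD4+ libraries (log2 fold change 1.48 ± 0.22, adjusted p = 7.2e-06). Asns, which makes asparagine, had 132, 164 and 121 CPM in CD8+ libraries, against 38.3, 50.8 and 73.5 CPM in CD4+ libraries (log2 fold change 1.31 ± 0.19, adjusted p = 3.2e-05). For these 3 genes the CD8+ libraries were close together and above all CD4+ libraries. Gpt2, a mitochondrial alanine aminotransferase, had 38.6, 55.7 and 40.4 CPM in CD8+ libraries and 24.7, 12.5 and 14.9 CPM in CD4+ libraries (log2 fold change 1.41 ± 0.26, adjusted p = 0.00021). Slc3a2, the heavy chain shared by several amino acid transporters, had 181, 211 and 158 CPM in CD8+ libraries and 101, 110.1 and 119 CPM in CD4+ libraries (log2 fold change 0.73 ± 0.14, adjusted p = 0.00027). Trib3 (1.19 ± 0.29, adjusted p = 0.0068), a pseudokinase, and Aldh18a1 (0.50 ± 0.14, adjusted p = 0.028), of proline synthesis, completed the 7.

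Atf4 itself had 382, 356 and 367 CPM in CD8+ libraries and 271, 289 and 315 CPM in CD4+ libraries. Its log2 fold change of 0.34 ± 0.16 did not pass (adjusted p = 0.30). The enzymes that load amino acids on tRNA, many of them also ATF4 targets, were higher for 3 of 20 tested and lower for 0. These were Gars, Lars and Sars, with log2 fold changes of 0.65 ± 0.13 (adjusted p = 0.0010), 0.71 ± 0.16 (adjusted p = 0.0037) and 0.59 ± 0.13 (adjusted p = 0.0016). Without CD4+ library 3 the count was 5, as it was by DESeq2. By limma-voom it was 8, and with Rn45s in the totals or the fold change of 1.5 required it was 0. The Trib3 call was lost without CD8+ library 2 (adjusted p = 0.12) or CD4+ library 3 (adjusted p = 0.0582). The Aldh18a1 call was lost without CD8+ library 1 (adjusted p = 0.0537), CD8+ library 2 (adjusted p = 0.18) or CD4+ library 1 (adjusted p = 0.18), and the Lars call without CD4+ library 1 (adjusted p = 0.0511). With Rn45s in the totals, or with a fold change of 1.5 required, 4 of the 7 ATF4 response genes passed.

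The window before the start of Asns, a textbook ATF4 target, is shown with the letters of the element that ATF4 binds with C/EBP proteins, TGATGNAA, in capitals (chr6:7693210-7693359, minus strand, GRCm38.p6, RefSeq).
Asns: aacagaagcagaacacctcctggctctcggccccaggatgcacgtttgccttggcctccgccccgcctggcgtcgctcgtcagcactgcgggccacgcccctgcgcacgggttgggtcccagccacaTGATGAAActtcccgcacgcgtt
It begins 23 bases before the start. Of the 7 genes, 5 were in the promoter table and Asns was the 1 that held the letters, against 2.54% of all genes on either strand.

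Many lists showed no member past the threshold in this comparison by edgeR's quasi-likelihood test. These held 40 DNA replication genes (median log2 fold change -0.07), 46 genes of the G2 and M phases (-0.02), 52 of oxidative phosphorylation (0.02), 56 of ribosome biogenesis (-0.08), 25 of cholesterol synthesis (0.10), 13 of serine and one-carbon metabolism (0.17) and 14 of the BCL2 family (-0.01). At an unadjusted p under 0.05 these lists held 3, 1, 2, 1, 4, 6 and 3 genes in the same order, where 15.7% of all genes tested did so. DESeq2 called 1 gene of serine and one-carbon metabolism, limma-voom called 4 of these and 1 of cholesterol synthesis, and neither called a gene of the other 5 lists. Of 24 glycolysis genes 1 passed, which is 4.17%, against 5.18% of all genes tested. It was Ldhb, a lactate dehydrogenase chain with 2.76, 2.68 and 1.13 CPM in CD8+ libraries and 5.19, 8.91 and 6.60 CPM in CD4+ libraries (adjusted p = 0.016). Its call was lost without CD8+ library 3 (adjusted p = 0.15) or CD4+ library 2 (adjusted p = 0.10). Of 21 genes of MHC class I presentation 2 passed, the neighbouring copies H2-Q6 and H2-Q7, with log2 fold changes of 1.23 ± 0.26 (adjusted p = 0.0027) and 0.96 ± 0.24 (adjusted p = 0.014). Reads of these copies may have been shared, and the H2-Q7 call was lost without CD4+ library 1 (adjusted p = 0.0743), CD4+ library 2 (adjusted p = 0.0652) or CD8+ library 2 (adjusted p = 0.10) and with the compared groups alone (adjusted p = 0.0525).

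Among the 12 genes with the largest differences in each direction were several outside these lists. Only genes past the threshold, with a mean of at least 10 CPM and no overlap between groups, were ranked. That the groups are apart for them is therefore part of the choice. Atp8b4, a phospholipid-moving ATPase, had 71.7, 66.4 and 55.2 CPM in CD8+ libraries, against 5.19, 3.56 and 5.50 CPM in CD4+ libraries (log2 fold change 3.71 ± 0.22, adjusted p = 3.2e-16). Ms4a4b, a membrane protein of T cells, had 87.5, 88.9 and 73.8 CPM in CD8+ libraries, against 8.43, 3.56 and 7.16 CPM in CD4+ libraries (log2 fold change 3.71 ± 0.29, adjusted p = 5.6e-09). For both genes the libraries of a group were close together and the groups far apart. Bend4 had a log2 fold change of 3.42 ± 0.30 (adjusted p = 3.7e-09), Ntrk3, a neurotrophin receptor, 3.22 ± 0.49 (adjusted p = 5.2e-05) and Wnt10b, a Wnt ligand, 2.83 ± 0.39 (adjusted p = 2.7e-06). On the other side, Ajuba, a LIM domain scaffold protein, had 1.97, 2.14 and 0.566 CPM in CD8+ libraries, against 40.2, 49.9 and 19.8 CPM in CD4+ libraries (log2 fold change -4.61 ± 0.57, adjusted p = 1.2e-05). Pros1, encoding protein S, a ligand of TAM receptors, had 2.76, 3.75 and 5.09 CPM in CD8+ libraries, against 29.2, 39.7 and 22.0 CPM in CD4+ libraries (log2 fold change -2.90 ± 0.38, adjusted p = 1.4e-06). Every CD8+ library was far below every CD4+ library for these 2 genes. Casp6, an effector caspase, had a log2 fold change of -2.24 ± 0.34 (adjusted p = 1.2e-05), and its call was lost with the compared groups alone (adjusted p = 0.12).

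Whether the same genes separate CD8+ from CD4+ cells at rest or without Raptor was asked in the other pairs, which share no library with the stimulated wild-type pair. In stimulated Raptor KO cells 562 genes passed (5.36% of those tested, with 2.73% higher and 2.63% lower), of which 232 also passed in stimulated wild-type cells, which is 41.3% of the Raptor KO list and 42.6% of the wild-type list. Of the 232, 230 had the same direction, and Ahr and Malt1 were opposite. Ahr, the aryl hydrocarbon receptor, had 15.2 ± 2.88 CPM in Raptor KO CD8+ and 4.92 ± 1.67 CPM in Raptor KO CD4+ cells, against 6.82 ± 4.68 CPM in wild-type CD8+ and 18.1 ± 10.2 CPM in wild-type CD4+ cells (SD, n = 3 each). Malt1, a protease of antigen receptor signalling, had 191 ± 33.9 CPM in Raptor KO CD8+ and 133 ± 20.8 CPM in Raptor KO CD4+ cells, against 83.6 ± 7.28 CPM in wild-type CD8+ and 135 ± 38.1 CPM in wild-type CD4+ cells. The wild-type call of Ahr was lost without CD8+ library 2 or 3 or CD4+ library 1 or 2 (adjusted p of 0.13 to 0.36), and that of Malt1 without CD4+ library 2 (adjusted p = 0.0871). With the compared groups alone neither passed (adjusted p = 0.44 for Ahr and 0.0877 for Malt1), and Ahr passed neither by DESeq2 (adjusted p = 0.0653) nor by limma-voom (adjusted p = 0.15). In resting wild-type cells 349 genes passed (3.33%, with 1.59% higher and 1.73% lower), of which 100 also passed after stimulation, which is 28.7% of the resting list and 18.4% of the stimulated list. Of these 100, 93 had the same direction, and Fam129a, Nrp1, Phlpp1, Rundc3b, Stambpl1, Stk39 and Trib3 were opposite. As given above, the stimulated calls of Nrp1 and Trib3 rest on single libraries, with adjusted p up to 0.38 for Nrp1 and 0.12 for Trib3 when 1 is left out. For the resting pair, totals with Rn45s and without TMM put the median log2 fold change of all genes at -0.43 in place of -0.01. They gave 45 higher and 141 lower genes in place of 167 and 182. For the stimulated Raptor KO pair they gave 122 higher and 53 lower genes in place of 286 and 276.

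**Figure D4:**
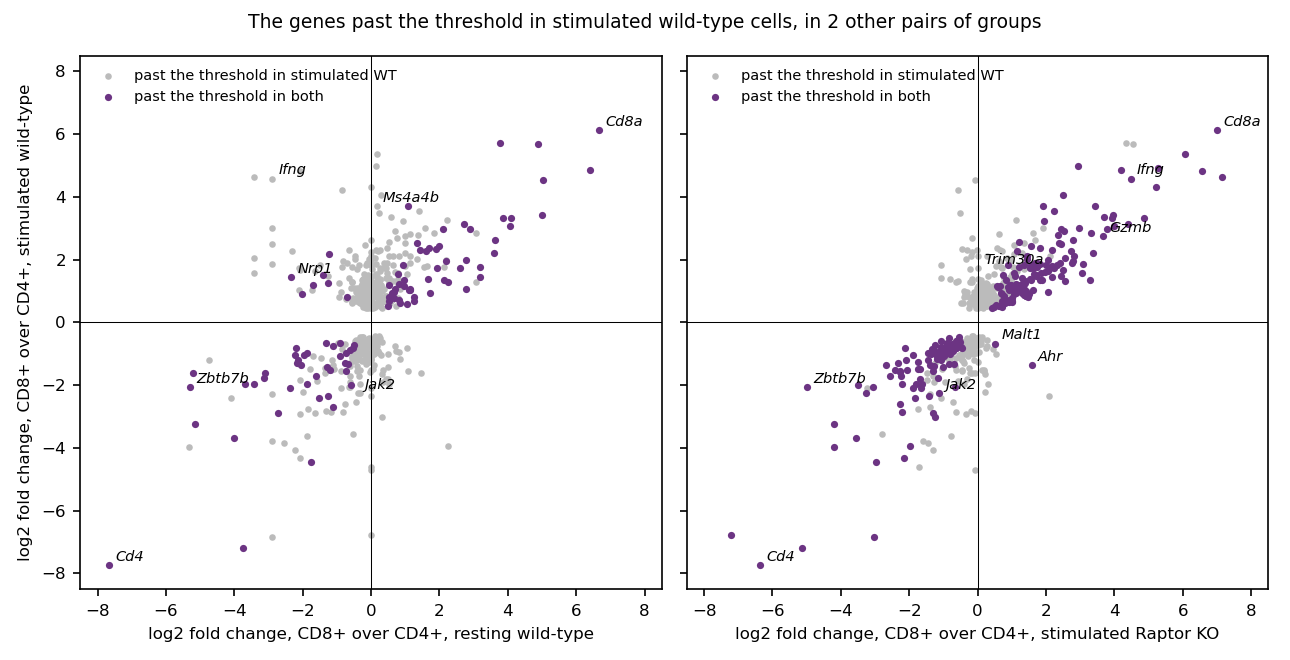
Log2 fold change of CD8+ over CD4+ cells in stimulated wild-type libraries (vertical) for the 544 genes past the threshold there, against the same in resting wild-type (left panel) and stimulated Raptor KO libraries (right panel). Purple marks genes that also passed in the second pair, 100 at rest and 232 in Raptor KO cells; in the right panel all purple points but Ahr and Malt1 lie at the lower left or upper right.

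Some of the genes above also separated the subsets at rest. In resting cells, Cd8a, Nkg7, Crtam and Klrk1 were higher in CD8+ cells, with log2 fold changes of 6.67 ± 0.24, 4.10 ± 0.44, 3.86 ± 0.75 and 2.91 ± 0.33 and adjusted p of 3.6e-24, 6.0e-07, 0.0011 and 4.4e-08. Gzmb was close to the floor at rest, at 0.473 ± 0.819 CPM in CD8+ cells and 0.171 ± 0.297 CPM in CD4+ cells (SD, n = 3 each). Prf1 averaged 19.6 ± 0.882 CPM in stimulated CD8+ cells and 1.64 ± 0.923 CPM in stimulated CD4+ cells, against 19.0 ± 9.37 CPM in resting CD8+ cells and 12.8 ± 1.82 CPM in resting CD4+ cells. The lowest of these 4 means was that of stimulated CD4+ cells. The subset difference of Prf1 was larger in stimulated than in resting cells by 2.78 ± 0.51 on the log2 scale (adjusted p = 0.0011). Il18r1 had 16.1 ± 5.57 CPM in stimulated CD8+ and 1.13 ± 0.728 CPM in stimulated CD4+ cells, against 51.5 ± 4.13 and 42.7 ± 9.45 CPM in resting CD8+ and CD4+ cells (difference 3.77 ± 0.55, adjusted p = 7.1e-05). Ms4a4b was at 83.4 ± 8.32 CPM in stimulated CD8+ and 6.38 ± 2.52 CPM in stimulated CD4+ cells, against 348 ± 71.5 and 310.2 ± 61.4 CPM in resting CD8+ and CD4+ cells (difference 3.54 ± 0.37, adjusted p = 4.9e-06).

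Over all genes, the subset difference itself differed between stimulated and resting wild-type cells for 151 genes (1.44%), 105 with a positive and 46 with a negative difference. With Rn45s in the totals these counts were 48 and 1, and the median difference of all genes was 0.51 in place of 0.01. Zbtb7b averaged 8.45 ± 6.39 CPM in stimulated CD8+ and 32.3 ± 7.70 CPM in stimulated CD4+ cells, against 1.22 ± 0.543 CPM in resting CD8+ and 48.5 ± 6.67 CPM in resting CD4+ cells (difference 3.25 ± 0.63, adjusted p = 0.0018). The CD8+ level was above the resting one in each of the 3 stimulated libraries. Myo10, an unconventional myosin, averaged 15.0 ± 6.62 CPM in stimulated CD8+ and 19.7 ± 4.22 CPM in stimulated CD4+ cells, against 0.274 ± 0.474 CPM in resting CD8+ and 29.8 ± 7.19 CPM in resting CD4+ cells (difference 6.24 ± 0.87, adjusted p = 9.5e-05). Among protein-coding genes with a mean of at least 10 CPM, the most negative difference was that of Racgap1, a GTPase-activating protein of cytokinesis, at 58.5 ± 11.0 CPM in stimulated CD8+ and 42.5 ± 7.17 CPM in stimulated CD4+ cells, against 35.5 ± 8.73 CPM in resting CD8+ and 3.22 ± 0.554 CPM in resting CD4+ cells (difference -3.0 ± 0.37, adjusted p = 1.6e-06). Myo10 and Racgap1 thus separated the subsets at rest and did not pass after stimulation (adjusted p = 0.59 and 0.16). Jak2 and Irf1 did the reverse, with differences of -1.89 ± 0.31 (adjusted p = 0.0011) and -1.49 ± 0.25 (adjusted p = 0.00046) and resting values that did not pass (adjusted p = 0.53 and 0.16). Both differences were lost with Rn45s in the totals (adjusted p = 0.40 for Jak2 and 0.63 for Irf1).

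The subset difference differed between Raptor KO and wild-type stimulated cells for 35 genes (0.334%), 18 with a positive and 17 with a negative difference. This count was 22 without wild-type CD8+ library 1 or Raptor KO CD4+ library 1, 18 without wild-type CD8+ library 2 or Raptor KO CD4+ library 2, and 17 without Raptor KO CD8+ library 2. With Rn45s in the totals it was 2, and the calls of Zbtb7b, Trim30a, Ahcyl2, Tnfsf10 and Rxra were lost. Zbtb7b was at 1.30 ± 0.332 CPM in Raptor KO CD8+ and 41.1 ± 5.49 CPM in Raptor KO CD4+ cells, against 8.45 ± 6.39 CPM in wild-type CD8+ and 32.3 ± 7.70 CPM in wild-type CD4+ cells (difference -2.93 ± 0.58, adjusted p = 0.0091). That call was lost without wild-type CD8+ library 2 (adjusted p = 0.0730), the library highest for Zbtb7b, and without Raptor KO CD8+ library 2 (adjusted p = 0.0657) or 3 (adjusted p = 0.0733). It was also lost with the compared groups alone (adjusted p = 0.18) and by limma-voom (adjusted p = 0.11). Trim30a was level in Raptor KO cells, at 22.5 ± 1.64 CPM in CD8+ and 22.5 ± 3.21 CPM in CD4+ cells, against 36.3 ± 6.24 CPM in wild-type CD8+ and 10.6 ± 0.778 CPM in wild-type CD4+ cells (difference -1.73 ± 0.29, adjusted p = 0.0020). Ahcyl2, a homologue of adenosylhomocysteinase, had 73.7 ± 5.42 CPM in Raptor KO CD8+ and 184 ± 5.66 CPM in Raptor KO CD4+ cells, against 59.0 ± 6.59 CPM in wild-type CD8+ and 52.6 ± 4.53 CPM in wild-type CD4+ cells (difference -1.48 ± 0.19, adjusted p = 1.1e-05). Tnfsf10, encoding the death ligand TRAIL, had 40.1 ± 7.65 CPM in Raptor KO CD8+ and 9.21 ± 2.06 CPM in Raptor KO CD4+ cells, against 4.33 ± 2.07 CPM in wild-type CD8+ and 5.37 ± 0.719 CPM in wild-type CD4+ cells (difference 2.55 ± 0.46, adjusted p = 0.0049). Rxra, encoding a nuclear receptor, had 33.3 ± 10.2 CPM in Raptor KO CD8+ and 42.4 ± 3.79 CPM in Raptor KO CD4+ cells, against 14.6 ± 1.66 CPM in wild-type CD8+ and 52.8 ± 7.15 CPM in wild-type CD4+ cells (difference 1.5 ± 0.30, adjusted p = 0.0091). This call was lost without Raptor KO CD8+ library 3 (adjusted p = 0.0975).

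The ATF4 response and interferon response lists were also counted in the other pairs. In Raptor KO cells 0 of the 23 ATF4 response genes were higher in CD8+ cells and 1 was lower, and at rest 0 were higher and 1 was lower. Over all genes tested 2.73% were higher and 2.63% lower in Raptor KO cells, and 1.59% and 1.73% at rest. The ATF4 counts are near these shares and are not read as a result about the list. At an unadjusted p under 0.05, 4 of the 23 were higher in Raptor KO cells and 1 at rest, where 8.51% and 6.06% of all genes were. DESeq2 called 1 and 0 of the 23 higher, and limma-voom 0 in both pairs. Cth averaged 5.81 ± 4.56 CPM in Raptor KO CD8+ and 1.33 ± 1.74 CPM in Raptor KO CD4+ cells, against 58.6 ± 3.03 CPM in wild-type CD8+ and 12.7 ± 4.05 CPM in wild-type CD4+ cells, and it had 0 counts at rest. Asns averaged 4.11 ± 1.31 CPM in Raptor KO CD8+ and 2.41 ± 1.31 CPM in Raptor KO CD4+ cells, against 139 ± 22.3 CPM in wild-type CD8+ and 54.2 ± 17.8 CPM in wild-type CD4+ cells. With so few counts in Raptor KO cells, a subset difference in Cth or Asns could be missed there. By the test of the difference, none of the 23 genes differed between Raptor KO and wild-type cells in this respect by edgeR's quasi-likelihood test, DESeq2 or limma-voom, with 4 at an unadjusted p under 0.05 (9.35% of all genes), and 2, Trib3 and Slc3a2, differed between stimulated and resting cells. Interferon response genes were lower in CD8+ cells for 8 of 26 in Raptor KO cells by edgeR, against 2.63% of all genes tested. For resting cells 0 of the 26 were lower by edgeR, DESeq2 or limma-voom. There, at an unadjusted p under 0.05, 1 was lower (7.14% of all genes) and 5 were higher (6.06%). By edgeR's test of the difference, only Irf1 (negative) and Trim30a (positive) differed between stimulated and resting cells. Only Trim30a (negative) differed between Raptor KO and wild-type cells. Irf1 averaged 126 ± 5.45 CPM in Raptor KO CD8+ and 219.6 ± 34.0 CPM in Raptor KO CD4+ cells (log2 fold change -0.80 ± 0.17, adjusted p = 0.0011), against 51.7 ± 13.1 CPM in wild-type CD8+ and 104 ± 13.8 CPM in wild-type CD4+ cells. At rest it averaged 80.3 ± 6.13 CPM in CD8+ and 57.0 ± 7.25 CPM in CD4+ cells (adjusted p = 0.16).

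**Figure D5:**
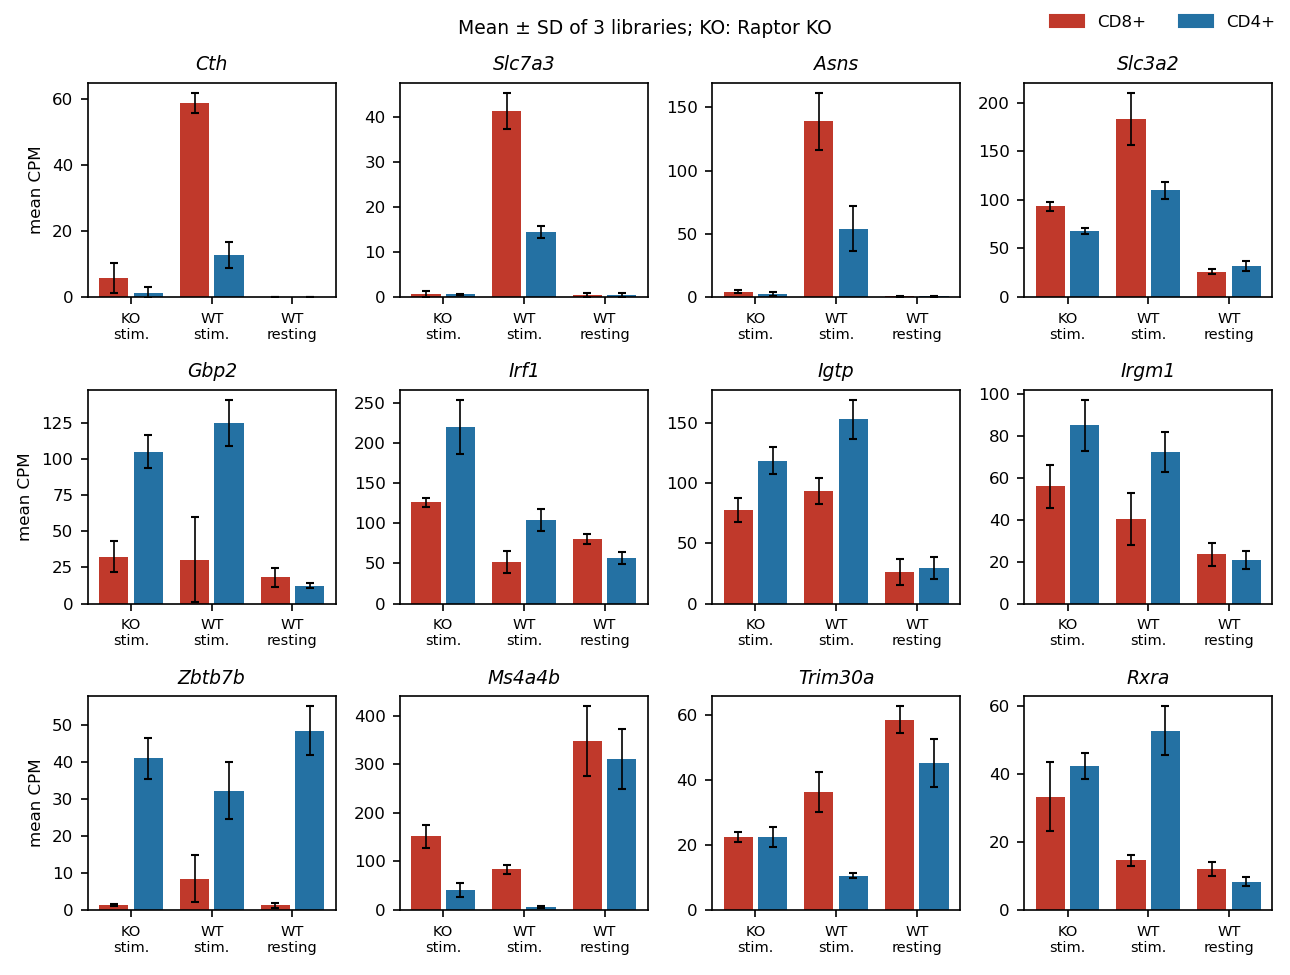
Mean CPM with SD (n = 3 libraries) of 12 genes in CD8+ (red, left of each pair) and CD4+ cells (blue, right of each pair) of 3 pairs of groups: Raptor KO stimulated, wild-type stimulated and wild-type resting. The upper row holds ATF4 response genes, high in stimulated wild-type cells; the middle row interferon response genes, higher in CD4+ cells in both stimulated pairs; the lower row genes whose subset difference differed between pairs.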

How the data were processed

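Per the labels' protocols, ultrasound broke the total RNA into fragments, adaptors were joined to their 3′ ends, and cDNA was amplified by PCR; neither depletion of ribosomal RNA nor poly(A) selection is named. STAR 2.6.0a and the build GRCm38 are listed in the submitters' processing notes. How reads were assigned to genes, with which gene models and with or without strand, is not given in the sources used here, so reads of overlapping or antisense genes cannot be told apart. The authors deposited raw counts per gene in 1 table of 26801 genes besides Rn45s, of which 26765 were matched to the GENCODE annotation of GRCm38 and 36 were not.

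Counts were filtered with filterByExpr (minimum count 10, minimum total count 15), scaled by TMM and fitted with edgeR 4.0.16 in R 4.3.3, with 1 mean for each of the 9 groups and all 27 libraries, which share 1 estimate of the spread (common biological coefficient of variation 0.187). The quasi-likelihood F test was used, and its p-values were adjusted by Benjamini-Hochberg over the 10493 genes tested; SE is the fold change divided by the square root of F. The code was tested on simulated data. Motifs were searched in RefSeq promoter windows. No 2 libraries of a group agreed within sampling noise in a chi-square comparison of their counts. Intervals and floors cover counting error only, since reads had no molecular identifiers.

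The genes and the 37 lists were chosen with earlier results of these data known. Genes named are the lineage genes; the 12 most different in each direction among those with a mean of at least 10 CPM and no overlap; the first 4 and the 4 most different called members of each list; and the 6 most extreme in each direction for each difference. Srgn, Lamp1, Ctsw, Serpinb9, Serpinb6b, Lyst, Il12rb1, Nrp1, Malt1, Igtp, Irgm1, Irgm2, Aldh18a1 and the genes of opposite direction at rest were named after their values were seen. So were the untested granule and interferon response genes outside the first 4 of their lists. Alternatives were median-ratio scaling, other filters, DESeq2 1.42.0, limma-voom 3.58.1, a minimum fold of 1.5, the compared groups alone, the library code as a block, totals with Rn45s or of protein-coding genes, and each library left out. Totals with Rn45s and totals of protein-coding genes were used without TMM scaling. Some genes are not reported here.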

Additional observations from a re-analysis of the deposited data

Results flagged for a closer look

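Each result here was flagged because the difference between CD8+ and CD4+ cells itself differed between 2 pairs of groups, by edgeR's quasi-likelihood test of that difference with an adjusted p under 0.05. Values are differences of log2 fold changes.

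Between stimulated and resting wild-type cells the difference was positive for Myo10 (6.24), Ptms (3.78), Nrp1 (3.77), Il18r1 (3.77), Ms4a4b (3.54), Rundc3b (3.42), Zbtb7b (3.25), Trib3 (2.89), Prf1 (2.78), Atp8b4 (2.63), Itga4 (1.60), Trim30a (1.36), Serpinb9 (1.29), Stat4 (1.09), Ccr7 (1.02), Slc3a2 (1.00), Ighm (0.99) and Sars (0.85). It was negative for Racgap1 (-3.0), Chsy1 (-2.59), Cst7 (-2.51), Prss12 (-2.41), Fam241a (-2.39), Rxra (-2.31), Jak2 (-1.89) and Irf1 (-1.49). The call of Prss12 was lost without any 1 of 4 libraries, with adjusted p of 0.0586 to 0.0986. The call of Serpinb9 was lost without any 1 library but stimulated CD8+ library 2 (adjusted p of 0.0630 to 0.22) and also by DESeq2 (0.0676), by limma-voom (0.24) and with the compared groups alone (0.12). Without 1 library the adjusted p was up to 0.0890 for Ighm, 0.0822 for Stat4 and 0.0699 for Sars, and that of Sars was 0.0951 with no filter on low counts. With Rn45s in the totals 15 of these 26 calls were lost, those of Ccr7, Chsy1, Cst7, Fam241a, Ighm, Irf1, Itga4, Jak2, Prss12, Rxra, Sars, Serpinb9, Slc3a2, Stat4 and Trim30a, and with a fold change of 1.5 required 8 were.

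Between stimulated Raptor KO and wild-type cells the difference was positive for Ahr (2.94), Tnfsf10 (2.55), Chst11 (1.94), Rxra (1.5), Egr2 (1.40), Atxn1 (1.36) and Malt1 (1.20). It was negative for Zbtb7b (-2.93), St6gal1 (-2.35), F2r (-2.08), Ms4a4b (-1.81), Trim30a (-1.73) and Ahcyl2 (-1.48). With 1 library left out at a time, the highest adjusted p was 0.0763 for Ahr, 0.0960 for Chst11, 0.0975 for Rxra, 0.0786 for Egr2, 0.0708 for Atxn1, 0.0733 for Zbtb7b, 0.0936 for St6gal1, 0.0779 for F2r and 0.0966 for Ms4a4b. Each of these 9 calls was lost without at least 1 of the libraries. With the compared groups alone the calls of Zbtb7b (adjusted p = 0.18), Ms4a4b (0.0601), Ahr (0.26), Chst11 (0.0574) and Malt1 (0.10) were lost, and those of Zbtb7b, Ms4a4b, Ahr and Chst11 also by limma-voom (adjusted p of 0.0751 to 0.20). All 13 of these calls were lost with Rn45s in the totals, and with a fold change of 1.5 required 11 were, those of Ahcyl2 and Tnfsf10 being kept. The stimulated wild-type libraries enter both sets of differences.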

How the results depend on the processing

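Counts of genes past the threshold kept within 1.5 times for stimulated wild-type cells (544) under median-ratio scaling (542), no filter (570), a stricter filter (552), protein-coding totals (547), the compared groups alone (394), DESeq2 (530) and limma-voom (643), and lay between 399 and 487 with 1 library left out. A minimum fold change of 1.5 left 171, and totals with Rn45s 181 (121 higher, 60 lower). For the other comparisons the minimum fold left 39 genes for stimulated minus resting, 3 for Raptor KO minus wild type, 113 at rest and 173 in Raptor KO cells, and totals with Rn45s gave 49 (48 positive, 1 negative), 2 (both positive), 186 and 175. Raptor KO minus wild type had 75 genes with no filter, 18 with the groups alone and 57 by DESeq2. With 1 library left out the ranges were 102 to 175, 17 to 45, 246 to 283 and 384 to 492.

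Same-numbered libraries deviated together with correlations of 0.07, 0.09 and 0.37 in the stimulated wild-type pair, not all above 0.1. The correlations were 0.15, 0.10 and 0.28 in the resting pair and 0.24, 0.03 and 0.30 in the Raptor KO pair. All were positive. Same-numbered libraries also share a library code in their titles. The labels do not give its meaning, so these libraries were not treated as pairs. In the stimulated wild-type pair CD8+ library 2 correlated best with CD4+ library 1. In the Raptor KO pair CD8+ library 2 correlated best with CD4+ library 3 (0.09). With the library code as a replicate block the counts were 674 for stimulated wild-type cells, 234 for stimulated minus resting and 75 for Raptor KO minus wild type. With the block and the compared groups alone they were 635, 290 and 102, and 645 at rest, and Il2, Gbp2 and Jak2 did not pass in stimulated wild-type cells (adjusted p = 0.0537, 0.20 and 0.0804). With the block alone, 5 helper cytokine genes were lower, and 4 chemokine and 6 aminoacyl-tRNA synthetase genes were higher. With the block and the groups alone, 10 effector and memory transcription factors, 7 aminoacyl-tRNA synthetases and 5 inhibitory receptors were higher and 5 costimulatory receptors lower.

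Of 81 named genes past the threshold that were followed through the alternatives, 57 passed in the same direction wherever they were tested. The minimum fold and the totals with Rn45s were set aside for this count. With the compared groups alone, with or without the block, 76 of the 81 were tested, and those not tested were not counted as lost. Where tested, 0 changed sign under any of the 17 alternatives. The minimum fold ended 26 of the 81 calls and totals with Rn45s 29; both ended those of Cd5, Lcp2, Irf1, Irgm1, Slc3a2, Gars, Lars, Sars, Il12rb1, Lag3 and Lyst among others. The causes were not tested. The median was 43 counts per tested protein-coding gene and library, and ratios of genes with few counts have wide intervals, such as 7.33 to 236 for Foxp3.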

Other observations

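Genes of naive and quiescent T cells were split between the stimulated wild-type subsets, with 5 of 28 tested higher in CD8+ cells and 5 lower. Totals with Rn45s gave 3 higher and 1 lower, with a fold change of 1.5 required 3 and 2, and with the compared groups alone 3 were higher. Tcf7, encoding the factor TCF-1 of naive and memory cells, had 84.0, 90.5 and 110.3 CPM in CD8+ libraries, against 146, 156 and 159.9 CPM in CD4+ libraries (log2 fold change -0.70 ± 0.13, adjusted p = 0.00037 by edgeR's quasi-likelihood test). The groups did not overlap. Among 22 p53 target genes, Perp was higher, with 27.2, 18.2 and 26.6 CPM in CD8+ libraries against 6.49, 3.56 and 2.75 CPM in CD4+ libraries (log2 fold change 2.61 ± 0.37, adjusted p = 7.1e-06), and Trp53inp1 was lower, while 20 did not pass. Over all genes tested 3.08% were higher and 2.11% lower, so 1 member each way is not read as a result about the list.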
